A study of Mus musculus with 4 samples.

Results

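Smooth muscle cells contract when myosin filaments pull on actin, and the genes for this apparatus are used to recognise the mural cells of vessels, the pericytes and smooth muscle cells. Some of the same genes are also active in fibroblasts that make tension while they lay down matrix, and the actin encoded by Acta2 is the usual label for such cells. In skeletal muscle the resident fibroblasts are the fibro-adipogenic progenitors, which support repair and are the main source of scar matrix in muscular dystrophy.

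The members described here are 10 of the 32285 genes in the count matrices, and all 10 were matched by symbol. They fall by textbook use into 5 restricted members, Acta2 (smooth muscle alpha actin), Tagln (transgelin, an actin binding protein), Myh11 (smooth muscle myosin heavy chain), Cnn1 (calponin 1) and Actg2 (the enteric smooth muscle actin), and 5 broad members, Tpm1 and Tpm2 (tropomyosins, also found in skeletal muscle fibres), Myl9 (a regulatory myosin light chain), Cnn2 (the calponin of non-muscle cells) and Cald1 (caldesmon, which has a form in most cell types). The question asked was how far fibroblasts carry these transcripts, compared with mural cells of the same library, and what share of fibroblasts carry 2 or more.

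The study profiled single mononuclear cells, frozen and thawed, from quadriceps or diaphragm of WT and mdx5cv mice at 14 weeks of age. The mdx5cv allele is an inherited mutation of the dystrophin gene, so every cell of those mice carries it, and the mice model Duchenne muscular dystrophy. There is 1 library for each pairing of genotype and muscle, and the number of animals behind each is not given in the labels. With 1 library per group no difference has a replicate check and no test was made. Intervals are 95% intervals for counting error only, and they treat UMIs (unique molecular identifiers, 1 per captured transcript) as independent.

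After filters on UMIs, detected genes and mitochondrial UMIs, 4911 cells were kept in WT quadriceps, 7516 in WT diaphragm, 8334 in mdx5cv quadriceps and 7402 in mdx5cv diaphragm, from matrices of 18837891 to 62780685 UMIs. Fibroblasts were cells with both Lum and Dpt (matrix proteins of fibroblasts) detected and no UMI of Rgs5 or Notch3 (mural genes): 603, 5809, 1272 and 2911 cells in the same order. Mural cells were the mirror of this, with Rgs5 and Notch3 detected and Lum and Dpt at 0: 168, 3, 46 and 12 cells, so that in WT quadriceps alone there were more than 50. Immune cells (Ptprc detected, the fibroblast, mural and endothelial gate genes at 0) served as the background for free RNA, with 272, 521, 4354 and 2372 cells. Library pairs shared 5 to 17 cell barcodes. Levels are given as CPM, the UMIs of a gene summed over a class of cells and scaled to 1000000 UMIs of that class.

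The gates were checked on marker lists that they did not use. All 6 fibroblast markers were detected in fibroblasts of each library, at a summed 34453 to 40978 CPM against 55.9 to 323.8 in immune cells. The 9 mural markers summed to 3913 CPM in mural cells of WT quadriceps and 304.4 in its fibroblasts, where Higd1b was at 0. The mural gate was not pure: 53.0% of its WT quadriceps cells and 50% of its mdx5cv quadriceps cells also held a UMI of Pecam1 or Cdh5, which are endothelial, and 21.7% of the latter held Ptprc against none of the former. Nor was the fibroblast gate. In the library order above, 1.16%, 1.74%, 17.8% and 9.38% of fibroblasts held Ptprc, and 11.9%, 2.51%, 2.75% and 3.09% Pecam1 or Cdh5. Acta1 or Mylpf, genes of muscle fibres, were found in 1.33%, 3.51%, 4.48% and 10.6%.

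Serum response factor, with its partners myocardin and the MRTF proteins, drives contractile genes through the CArG box. RefSeq promoter entries (GRCm38.p6, the 250 bases before the start) were held for 7 members and searched on both strands. Tagln, Myh11 and Actg2 had no entry. A CArG box stood before Myl9 and Cnn2, and a match with 1 other base in its run of A and T before Acta2 and again before Myl9. Of 32851 promoters, 1.47% held a CArG box and 8.59% a match that allows 1 other base. Cnn1, Tpm1, Tpm2 and Cald1 held neither in this window. The stretches that hold a match are shown, so that the elements can be read beside the levels given further on. Capitals mark the match, and each runs 5′ to 3′ on the strand of the gene. The Acta2 windows lie at chr19:34255438-34255467 and chr19:34255388-34255417 (minus strand), in a first exon that GENCODE starts earlier than RefSeq. The Myl9 stretch is chr2:156775214-156775419 and the Cnn2 stretch chr10:79988350-79988583, both plus strand and outside annotated exons of the gene.
Acta2, far window: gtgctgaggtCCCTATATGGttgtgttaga
Acta2, near window: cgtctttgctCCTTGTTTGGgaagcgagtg
Myl9: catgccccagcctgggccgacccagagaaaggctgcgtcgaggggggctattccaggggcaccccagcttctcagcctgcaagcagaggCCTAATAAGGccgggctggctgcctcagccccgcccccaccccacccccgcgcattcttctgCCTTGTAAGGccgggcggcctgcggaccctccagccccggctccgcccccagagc
Cnn2: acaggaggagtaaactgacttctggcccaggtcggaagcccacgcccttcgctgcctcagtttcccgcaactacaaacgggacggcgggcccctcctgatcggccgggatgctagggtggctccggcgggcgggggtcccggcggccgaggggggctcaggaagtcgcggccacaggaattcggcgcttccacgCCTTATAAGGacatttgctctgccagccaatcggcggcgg
A match is a description of letters and not evidence of binding.

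The genes lie apart in the genome (GENCODE M21 annotation of GRCm38, the mm10 build of the files). Acta2 is at chr19:34241090-34255590 and Myh11 at chr16:14194535-14291372, both on the minus strand and with no overlapping gene. Tagln, at chr9:45929619-45936058 on the minus strand, overlaps Pcsk7 and Gm48529 on the opposite strand. Cald1, at chr6:34598500-34775473 on the plus strand, overlaps 3 non-coding genes on the opposite strand. The sources used here do not state whether strand was used in counting, so reads of such pairs might not be told apart.

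Few fibroblasts carried 2 or more members once cells were compared at equal depth. With each cell thinned at random to 1000 UMIs, 24 of 603 fibroblasts of WT quadriceps did (3.98%, interval 2.57 to 5.86), as did 214 of 5809 of WT diaphragm (3.68%, 3.21 to 4.20). In mdx5cv the counts were 88 of 1272 in quadriceps (6.92%, 5.59 to 8.45) and 226 of 2911 in diaphragm (7.76%, 6.82 to 8.80). Both dystrophic libraries lay above both WT libraries, and the 2 muscles of a genotype had overlapping intervals. That order did not hold when a member had to show 2 UMIs. The shares were then 0.332% (0.040 to 1.19), 0.120% (0.048 to 0.248), 0.550% (0.2215 to 1.13) and 0.137% (0.037 to 0.351). They rest on few cells and their intervals overlapped, so no order is read at that setting. In immune cells, at the same 1000 UMIs, the share was 0.735%, 0.960%, 0.712% and 0.548%, below the fibroblasts of each library, and mural cells of WT quadriceps reached 79.2% (72.2 to 85.0).

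Depth set the size of these shares. With all UMIs counted, 23.1%, 33.6%, 46.8% and 49.0% of fibroblasts carried 2 or more members, at median depths of 3710, 4619, 5800 and 5004 UMIs, and immune cells gave 8.09%, 4.99%, 12.2% and 9.70% at 3920, 2918, 5594 and 5204 UMIs. The gap between the WT muscles without thinning was not seen at equal depth. Most carriers had exactly 2: among thinned fibroblasts, 4, 21, 21 and 33 cells carried 3 or more.

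The pairs were made mostly of broad members: 2 or more of the 5 broad members were found in 19, 178, 60 and 172 of these carriers. At least 2 of the 5 restricted members were found in 1, 10, 5 and 11 thinned fibroblasts, or 0.166%, 0.172%, 0.393% and 0.378%, against 49.4% (41.6 to 57.2) of mural cells of WT quadriceps. Without thinning the shares in fibroblasts were 0.663%, 0.603%, 4.72% and 2.41%. The higher shares in mdx5cv without thinning had intervals (3.62 to 6.03 in quadriceps, 1.88 to 3.03 in diaphragm) clear of those of WT (0.181 to 1.69 and 0.420 to 0.837), while at equal depth all 4 intervals overlapped.

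**Figure D1:**
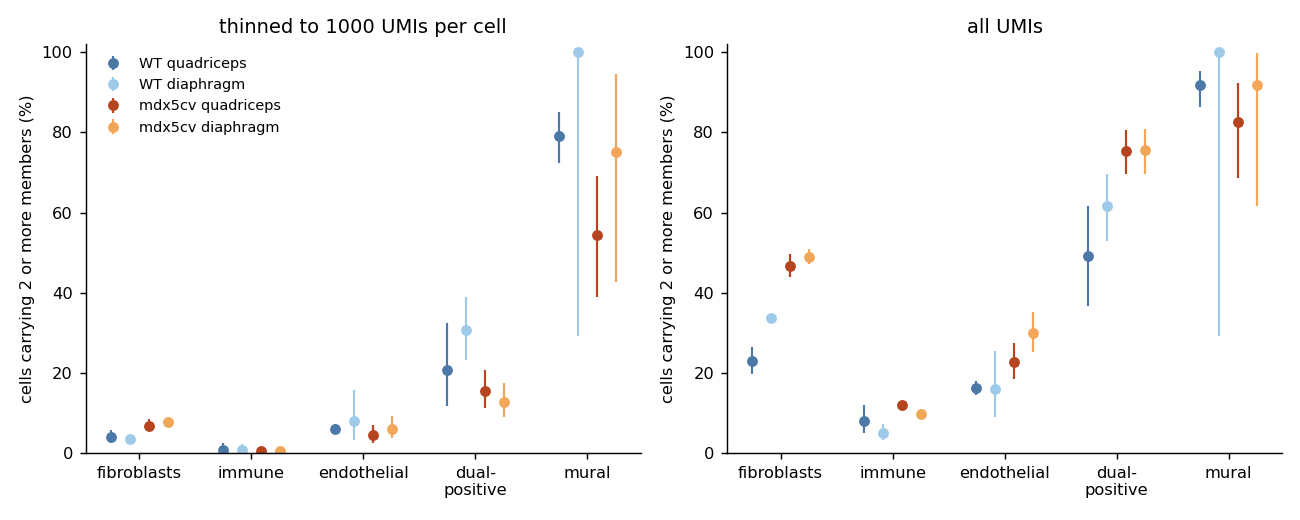
Share of cells carrying 2 or more of the 10 members, in percent, by class of cells and library, with cells thinned to 1000 UMIs (left) and with all UMIs (right). Points are shares and bars exact binomial 95% intervals. At equal depth fibroblasts lie between 3.68% and 7.76%, above immune cells in each library and far below mural cells of WT quadriceps at 79.2%.

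Among the restricted members, Acta2 gave 21.8 CPM in fibroblasts of WT quadriceps (52 UMIs, interval 16.3 to 28.6), 30.7 in WT diaphragm (881 UMIs), 127 in mdx5cv quadriceps (1305 UMIs) and 88.2 in mdx5cv diaphragm (1618 UMIs). Both mdx5cv values exceeded both WT values. The immune cells of the same libraries gave 13.4, 18.3, 11.3 and 9.93, so the WT levels stood little above background and the mdx5cv levels well above it. By cells with a UMI at equal depth, Acta2 was found in 2.32%, 1.29%, 3.62% and 3.54% of fibroblasts and in 1.84%, 1.15%, 0.827% and 0.548% of immune cells.

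Tagln, the partner of Acta2 in the stress fibre, gave 19.3, 12.4, 48.1 and 23.9 CPM in fibroblasts, in the library order used above, from 46, 355, 495 and 439 UMIs. Immune cells gave 4.17, 2.03, 1.56 and 1.68. The WT quadriceps value rests on few cells: 1 cell held 23 of the 46 UMIs.

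The other restricted members were all but missing from fibroblasts. Myh11, the most specific gene of mature smooth muscle, had 2, 69, 4 and 14 UMIs, or 0.838, 2.40, 0.389 and 0.763 CPM, and 1 cell of WT diaphragm held 20 of its 69. Immune cells gave 0.835, 0.508, 0.533 and 0.584 CPM, so that in 3 libraries the fibroblast level was close to background. Cnn1 had 2, 18, 1 and 2 UMIs. Actg2 had 3 UMIs in WT diaphragm and 0 elsewhere. A floor of 3 counts stands at 1.26, 0.292 and 0.164 CPM in WT quadriceps, mdx5cv quadriceps and mdx5cv diaphragm. The interval is wider than that floor, with an upper limit of 1.545 CPM in WT quadriceps.

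The broad members were detected more widely. Cald1 gave 252, 242, 305 and 368 CPM in the same order and was found in 24.4%, 21.7%, 25.6% and 28.8% of thinned fibroblasts, while immune cells gave 4.17, 19.3, 4.86 and 4.45 CPM. It was the member detected in the largest share of fibroblasts in all 4 libraries. Tpm1 gave 51.9, 68.4, 133 and 99.3, and Tpm2 7.96, 8.67, 32.1 and 37.8.

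Myl9 gave 28.1, 19.5, 19.5 and 18.6 CPM, highest in WT quadriceps, and immune cells held 0.284 to 3.56. Cnn2 gave 15.5, 27.7, 62.2 and 38.9 in fibroblasts, but 106, 126, 101.7 and 111 in immune cells, so it was higher in immune cells than in fibroblasts of each library. Fibroblasts of mdx5cv also held more immune transcripts: the 7 immune markers summed to 5019 and 2695 CPM in mdx5cv quadriceps and diaphragm, against 533 and 275 in WT. All 7 were detected in each, and the part of this in the Cnn2 values was not tested.

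**Figure D2:**
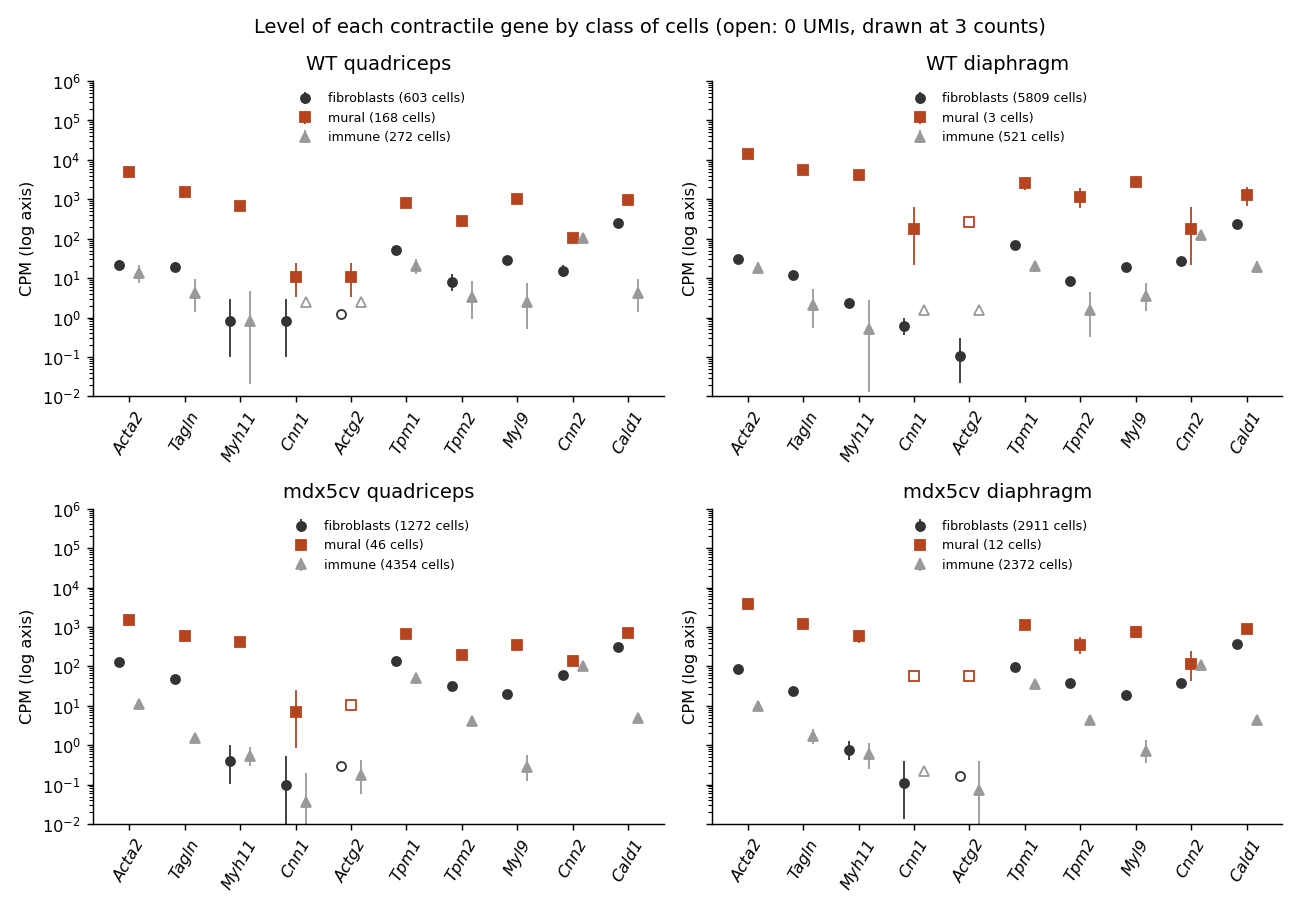
CPM of each member on a log axis in fibroblasts (circles), mural cells (squares) and immune cells (triangles) of each library. Bars are exact Poisson 95% intervals and open marks are genes with 0 UMIs drawn at 3 counts. Mural cells lie above fibroblasts for each member with UMIs in both, and Myh11 in fibroblasts lies at or near the immune level in 3 of 4 libraries.

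Against mural cells, fibroblasts were low for the whole apparatus. In WT quadriceps the 10 members summed to 10297 CPM in mural cells and 398.2 in fibroblasts, a ratio of 25.9 (24.1 to 27.7). The ratio was 165 (136 to 203) for the restricted members and 9.12 (8.38 to 9.93) for the broad ones. All 10 members were 2-fold or more higher in mural cells there, as were 20.1% of the 11420 genes with at least 5 CPM in either class. The median log2 ratio was 4.58 for the members and 0.18 over those genes. Myh11, Cnn1 and Actg2 reached 5 CPM in mural cells only, at 0.838, 0.838 and 0 CPM in fibroblasts. The filter thus fixed their direction, and both the count and the median of the members include them.

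In this ratio Acta2, Tagln and Myh11 stood above every broad member. Cnn1 and Actg2 had too few UMIs to be placed. Acta2 was 220-fold higher (167 to 295), at 4787 against 21.8 CPM, and Tagln 81.5-fold (60.5 to 112). Myh11 had 325 UMIs in mural cells and 2 in fibroblasts, a ratio of 808 (222 to 6698). Cnn1 and Actg2 had 5 UMIs each in mural cells. For Cnn1, with 2 UMIs in fibroblasts, the ratio was 12.4 (2.03 to 131), and Actg2 was at least 8.28-fold higher against a floor of 3 counts, before the counting error of its 5 UMIs. Among broad members, Myl9 was 37.3-fold (28.9 to 48.9) and Tpm2 36.4-fold (22.4 to 62.2) higher. Cald1 was lowest at 3.89-fold (3.44 to 4.39), with Tpm1 at 15.8 and Cnn2 at 6.85. The order of members was not the same in mdx5cv quadriceps with mural cells set by an excess of Rgs5 and Notch3 over Lum and Dpt. In those 56 cells Myl9 was 15.4-fold higher than in fibroblasts, against 9.97-fold for Acta2 and 10.8-fold for Tagln. By that gate Acta2, Tagln and Myh11 stood above the broad members in both diaphragm libraries, from 5 cells in WT and 15 in mdx5cv.

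In the other libraries the mural class was small. The ratio of the sum was 76.0 in WT diaphragm (3 mural cells), 6.29 in mdx5cv quadriceps (46 cells) and 13.1 in mdx5cv diaphragm (12 cells). Within quadriceps the gap was narrower in mdx5cv, with fibroblasts higher and mural cells lower than in WT. Acta2 in mural cells was 4787 CPM in WT and 1534 in mdx5cv, a ratio of 0.320 (0.289 to 0.355), with Tagln at 0.372, Myl9 at 0.336 and Myh11 at 0.624 (0.502 to 0.772). Over the same cells the 7 immune markers stood at 10134 CPM in mdx5cv (all 7 detected) and 115 in WT (5 detected, Ptprc and Coro1a at 0), and the 7 myogenic markers at 693 and 231. The part of these other transcripts in the lower mural values was not tested.

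Between genotypes, fibroblasts of mdx5cv held more of 5 members in quadriceps and of 2 in diaphragm by the 2-fold mark. Of the 7 members with at least 5 CPM in either library, Acta2, Tagln, Tpm1, Tpm2 and Cnn2 passed in quadriceps, where 12.3% of 11189 genes were 2-fold or more higher and 8.14% lower. In diaphragm Acta2 and Tpm2 passed, where 6.31% of 10535 genes were higher and 4.47% lower. No member was 2-fold lower in either muscle among those 7. With cells holding Rgs5 or Notch3 kept in, a gate described below, the count was 2 higher (Tpm2 and Cnn2) and 2 lower (Myh11 and Myl9) of 8 in quadriceps, and 1 higher (Tpm2) and 1 lower (Myh11) of 8 in diaphragm. The median log2 ratio of the 7 was 1.36 in quadriceps and 0.60 in diaphragm, and 0.05 and 0.08 over all genes at that level.

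Markers of other cells moved with genotype in the same fibroblasts. The 4 tenocyte markers, all detected, summed to 657 CPM in WT and 2842 in mdx5cv quadriceps, and to 1103 and 2880 in diaphragm. The 7 myogenic markers summed to 74.5 and 149.5 in quadriceps, with Pax7, Myf5 and Chrna1 at 0 in WT, and to 17.3 and 70.6 in diaphragm. The 6 endothelial markers went the other way in quadriceps, at 264.7 in WT and 42.7 in mdx5cv, and stood at 38.9 and 53.2 in diaphragm. Schwann and mesothelial markers were lower in mdx5cv in both muscles. Without cells holding Ptprc, Pecam1 or Cdh5, Tagln in WT quadriceps was at 6.01 CPM and its quadriceps ratio at 8.16. The part of these other transcripts in the members' values was not tested.

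By member, Acta2 was 5.83-fold higher in mdx5cv quadriceps (4.42 to 7.85), with a ratio of 2.88 (2.65 to 3.13) in diaphragm. Over the alternatives its quadriceps ratio lay between 1.24 and 13.7, its diaphragm ratio between 1.13 and 6.33, lowest with Rgs5 or Notch3 positive cells kept in and highest after the immune level was subtracted. Tpm2 had ratios with overlapping intervals in the 2 muscles, at 4.03-fold (2.54 to 6.79) and 4.36-fold (3.77 to 5.06). The excess of Tpm1 in mdx5cv was 2.57-fold (2.14 to 3.11) in quadriceps but 1.45-fold (1.36 to 1.55) in diaphragm. Cnn2 was 4.02-fold and 1.40-fold higher, and Tagln 2.50-fold and 1.94-fold. For Tagln the same alternatives spanned 1.01 to 9.01 (quadriceps) or 0.881 to 2.61 (diaphragm).

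Cald1 and Myl9 set the other end. For Cald1 the mdx5cv to WT ratio was 1.21 (1.11 to 1.32) in quadriceps, against 1.52 (1.47 to 1.57) in diaphragm. Myl9 was 0.693 (0.523 to 0.928) of the WT level in quadriceps and 0.957 (0.834 to 1.10) in diaphragm. Myh11 in diaphragm was lower, at 0.318 (0.165 to 0.570), from 14 against 69 UMIs, and at 0.839 with a mitochondrial limit of 5%. Neither Myh11 nor Myl9 was higher in mdx5cv in either muscle with the main settings. Under the alternatives Myl9 in diaphragm was at 1.15 with that limit and 1.12 after the immune level was subtracted. It was at 1.04 without high doublet scores and 1.01 without cells holding Ptprc, Pecam1 or Cdh5, so its direction there was not stable.

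Myofibre transcripts moved with these values and Tpm1 and Tpm2 belong to muscle fibres too. The 7 myofibre markers summed to 9.63 and 18.7 CPM in fibroblasts of WT quadriceps and diaphragm, with Acta1 and Mb at 0 in the first, and to 125 and 52.2 in mdx5cv, with all 7 detected. With each fibroblast that held such a transcript left out, the mdx5cv to WT ratio of Tpm2 was 2.87 in quadriceps and 4.31 in diaphragm, and that of Tpm1 2.32 and 1.45. The same step took Acta2 to 4.02 and 3.08 and Tagln to 9.01 and 2.29, the Tagln value because WT quadriceps then held 5.71 CPM in place of 19.3.

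The mdx5cv to WT ratios of Acta2 and Tagln were lowest under a change of the fibroblast gate that was added after seeing the data. Under the other alternatives run, Acta2 was no lower than 2.04 in quadriceps and 2.10 in diaphragm. Tagln was no lower than 1.42 and 1.47. Cells with Lum, Dpt and a UMI of Rgs5 or Notch3, called dual-positive below, were not counted as fibroblasts: 67, 143, 256 and 249 cells, at median depths of 5053, 5549, 11202 and 8869 UMIs. They held 1013, 2462, 352 and 352 CPM of Acta2 and 226, 607, 23.6 and 41.2 of Myh11, far above fibroblasts in WT and less far in mdx5cv. In WT diaphragm, 143 dual-positive cells held 2242 Acta2 UMIs where 5809 fibroblasts held 881.

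With the dual-positive cells kept in, the mdx5cv to WT ratio of Acta2 became 1.24 (1.11 to 1.38) for quadriceps, 1.13 (1.07 to 1.19) for diaphragm, and that of Tagln 1.01 (0.868 to 1.18) and 0.881 (0.809 to 0.960). Tpm1 fell under the 2-fold mark in quadriceps, at 1.80 (1.56 to 2.08), and Myl9 stood at 0.479 (0.388 to 0.593) there and 0.756 (0.675 to 0.844) in diaphragm. Tpm2 was still above 2-fold, at 2.48 (1.80 to 3.52) and 2.59 (2.30 to 2.92). Cnn2 (4.41 and 1.39) and Cald1 (1.25 and 1.502) barely moved, and Myh11 was lower in mdx5cv in both, at 0.206 (0.150 to 0.284) and 0.260 (0.211 to 0.318). Of dual-positive cells, 50.75%, 6.99%, 9.77% and 7.63% held Pecam1 or Cdh5 in the 4 libraries, against 11.9%, 2.51%, 2.75% and 3.09% of fibroblasts. Ptprc was held by 8.96%, 0%, 26.6% and 11.65% of them, against 1.16%, 1.74%, 17.8% and 9.38%. Whether dual-positive barcodes are doublets, cells with free RNA or cells of mixed character was not tested.

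**Figure D3:**
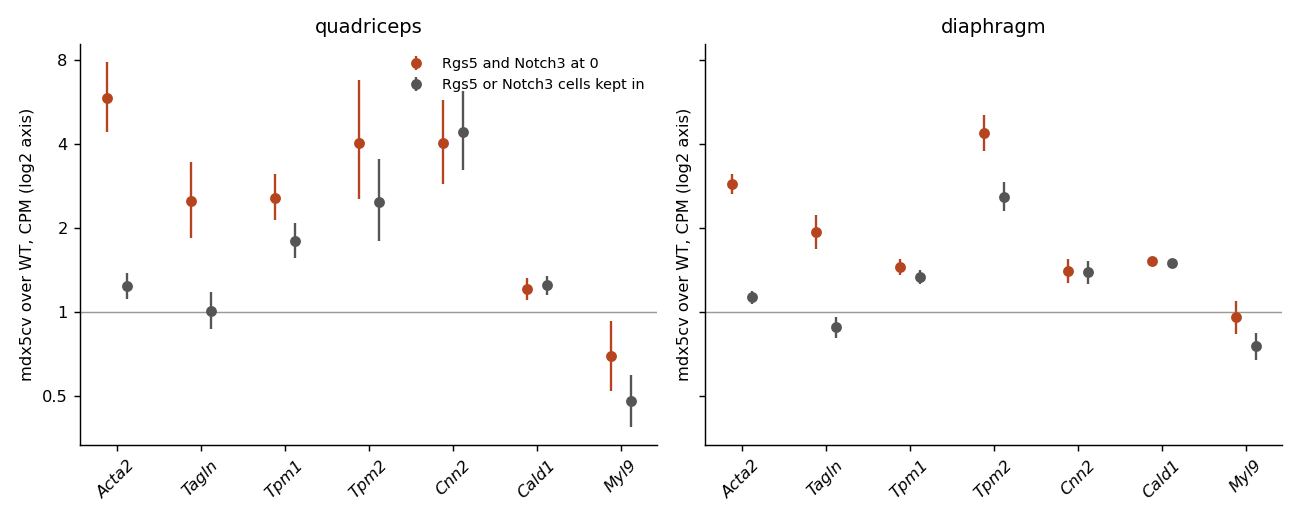
Ratio of mdx5cv to WT CPM in fibroblasts, on a log2 axis, for the 7 members above 5 CPM, in quadriceps (left) and diaphragm (right). Bars are exact conditional 95% intervals. With Rgs5 or Notch3 positive cells kept in (grey), Acta2 and Tagln lie between 0.881 and 1.24, while Tpm2 stays above 2 in both muscles.

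Acta2 and Tagln were uneven among fibroblasts. The 1% of fibroblasts richest in Acta2 held 46.2%, 74.8%, 53.1% and 50.2% of its UMIs in the 4 libraries, and for Tagln 89.1%, 81.1%, 56.4% and 77.5%. The same share of cells held 6.23% to 9.14% of Cald1 UMIs. The richest cell held 13, 70, 122 and 74 Acta2 UMIs. Genes with fewer UMIs are more concentrated by counting alone, so Tpm1 is the closer comparison, with more UMIs than Acta2 in each library. Its richest 1% of cells held 11.3%, 9.97%, 21.9% and 11.4%, below Acta2 in all 4.

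At 5 or more UMIs, Acta2 was found in 1 of 603 fibroblasts of WT quadriceps, 28 of 5809 of WT diaphragm, 55 of 1272 of mdx5cv quadriceps and 70 of 2911 of mdx5cv diaphragm, with cells not thinned. The mean over cells, in which each cell counts alike, gave a mdx5cv to WT ratio for Acta2 of 2.04 in quadriceps and 2.10 in diaphragm, in place of 5.83 and 2.88. The size of the quadriceps difference therefore depends on how cells are weighted.

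Acta2 was found together with Tagln, Tpm1 and Myl9 more often than the product of their shares in all 4 libraries. Among thinned fibroblasts, Acta2 and Tagln shared 1, 9, 5 and 10 cells, where the product of their shares gives 0.139, 0.426, 0.9403 and 0.920. Of Acta2 positive fibroblasts in mdx5cv quadriceps 28.3% held Tpm1, against 7.91% of the rest, and in mdx5cv diaphragm 13.6% against 8.76%. Cald1 was nearer to the product, with 17 shared cells against 11.75 in mdx5cv quadriceps and 38 against 29.7 in mdx5cv diaphragm. Acta2 and Cnn2 shared 0, 5, 0 and 7 cells in the 4 libraries, where the product gives 0.186, 1.87, 1.88 and 3.36. Pairs of broad members varied. Tpm1 with Cald1 stood at 0.887, 1.11, 1.17 and 1.09 times the product, and Tpm1 with Myl9 at 1.81, 1.26, 0.578 and 1.19. Tpm2 with Myl9 stood at 0, 1.04, 7.95 and 1.29 times it, and Tpm2 with Cnn2 at 0, 1.74, 2.04 and 2.55. The 7.95 rests on 3 shared cells against 0.377. No general difference from the pairs with Acta2 is read. These are small counts in sparse data, and no test was made.

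Within mdx5cv, some matrix genes of the activated state marked fibroblasts that carried the members more often. Of 7 such genes, 5 had a higher share in positive cells with intervals apart in quadriceps (Tnc, Postn, Adam12, Timp1 and Fn1) and 4 in diaphragm (Tnc, Postn, Adam12 and Timp1). Cthrc1 had overlapping intervals in both. Col1a1 pointed the other way in diaphragm, also with overlapping intervals (7.38%, 6.41 to 8.43, of positive and 12.1%, 8.24 to 16.9, of negative cells). Tnc encodes tenascin C, a matrix protein of injured tissue. In mdx5cv quadriceps 33 of 174 fibroblasts with Tnc carried 2 or more members (19.0%, 13.4 to 25.6), against 55 of 1098 without it (5.01%, 3.80 to 6.47). In mdx5cv diaphragm the shares were 21.5% (16.9 to 26.7) and 6.28% (5.38 to 7.28), so both muscles showed the same gap with intervals apart.

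Acta2 itself was found in 12.1% of Tnc positive and 2.28% of Tnc negative fibroblasts of mdx5cv quadriceps, while diaphragm gave 11.97% and 2.63%. For Postn (periostin) 10.2% of positive and 4.18% of negative fibroblasts carried 2 or more in quadriceps, and 10.0% and 6.01% did in diaphragm. For Adam12, a metalloprotease of activated fibroblasts, quadriceps gave 20.3% and 6.21% and diaphragm 15.1% and 7.49%. Pi16, a gene of the adventitial fibroblast state, went the other way in quadriceps, at 2.80% (0.767 to 7.01) and 7.44% (5.98 to 9.13), with overlapping intervals, and in diaphragm the values were 6.99% and 8.22%. The tenocyte gene Fmod showed a gap like that of Tnc in quadriceps, at 16.3% (9.20 to 25.8) and 6.24% (4.93 to 7.77), and overlapping intervals in diaphragm.

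In WT such cells were rare. Tnc was found in 13 thinned fibroblasts of WT quadriceps and 12 of WT diaphragm, of which 2 and 1 carried 2 or more members. Of 328 Postn positive fibroblasts in WT diaphragm 5.79% (3.52 to 8.90) carried 2 or more, against 3.56% (3.08 to 4.08), with overlapping intervals.

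**Figure D4:**
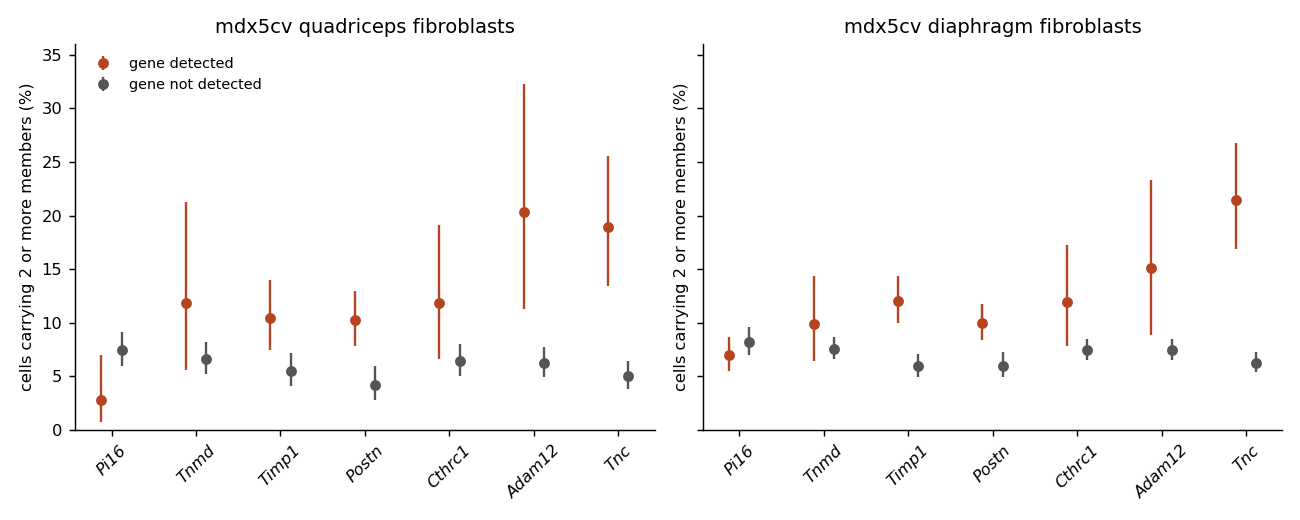
Share of mdx5cv fibroblasts, thinned to 1000 UMIs, that carry 2 or more members, split by whether a gene of fibroblast state was detected in the cell (red) or not (grey). Bars are exact binomial 95% intervals. The gap is 19.0% against 5.01% for Tnc in quadriceps and 21.5% against 6.28% in diaphragm, and Pi16 shows none in that direction.

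The wider actin and myosin machinery was mixed. Of 35 contractile and cytoskeletal partners, 30 reached 5 CPM in quadriceps fibroblasts, 8 of them 2-fold or more higher and 3 lower in mdx5cv (median log2 ratio 0.62), and 28 in diaphragm, 5 higher and 3 lower (0.17). Over all genes at that level, 12.3% were higher and 8.14% lower in quadriceps, and 6.31% and 4.47% in diaphragm. Actn1, an alpha actinin that links actin filaments, was 7.06-fold higher (157 against 22.2 CPM) in quadriceps and 5.87-fold (120 against 20.5) in diaphragm. The skeletal and cardiac actins Acta1 and Actc1 had 0 UMIs in WT quadriceps fibroblasts. Against a floor of 3 counts, and before counting error, they were 39.2-fold and 17.3-fold higher in mdx5cv. Acta1 is also one of the myofibre markers. A UMI of Acta1 or Mylpf, another of them, was found in 1.33% of WT and 4.48% of mdx5cv quadriceps fibroblasts.

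In diaphragm the 5 were Actn1, Fhl2 (3.45-fold), Synpo (3.37-fold, an actin binding protein), Acta1 (3.09-fold) and Myh9 (2.88-fold, a non-muscle myosin). The 3 lower genes were Mustn1, Ppp1r14a and Ppp1r12b in quadriceps and Mustn1, Ppp1r14a and Mylk in diaphragm. Mustn1 stood lowest in both muscles, at 0.127 (0.105 to 0.155) and 0.184 (0.163 to 0.208) of WT. Ppp1r12b, a subunit of myosin phosphatase, was at 0.366 and 0.602, with Myh10, a non-muscle myosin, at 0.527 in quadriceps and Myl12b, a non-muscle light chain, at 0.621 in diaphragm. Actn1 and Mustn1 thus lay toward opposite ends of the list in both muscles.

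Of the 8 regulators, 5 reached that level in each muscle, with 2 (Srf at 2.30 and Heyl at 3.86) and 0 of them 2-fold higher in mdx5cv and none lower. Tead1, a factor of the Hippo pathway that binds contractile genes, had ratios of 1.62 (1.36 to 1.95) in quadriceps, then 1.49 (1.37 to 1.62) in diaphragm. Mrtfb, a partner of serum response factor, was at 0.816 (0.623 to 1.08) in quadriceps, and Heyl, a Notch target, was 1.43-fold higher in diaphragm. The TGF-beta targets reported here were mixed. Ltbp2, which binds fibrillin, was 17.4-fold higher in quadriceps and 9.69-fold higher in diaphragm. In quadriceps Ccn2 (1.80), Smad7 (1.62), Skil (1.48) and Tgfb1i1 (1.23) had ratios above 1, with Tgfbi at 0.984. In diaphragm Tgfbi was at 2.01, and Ccn2 (0.479), Smad7 (0.866), Skil (0.870) and Tgfb1i1 (0.814) were below 1.

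The 12 matrix genes of activated fibroblasts had larger median ratios than the contractile lists. In quadriceps 8 and in diaphragm 7 were 2-fold or more higher and none lower, with median log2 ratios of 2.67 and 2.69, where 12.3% and 6.31% of all genes were higher. Cthrc1, a secreted glycoprotein, had ratios of 67.3 (32.6 to 168) in quadriceps, then 15.6 (13.8 to 17.8) in diaphragm, where Tnc reached 47.2 (40.6 to 55.1). Fap (0.827 and 0.878) and Itga11 (0.707 and 0.705) were not higher. The list was drawn up with results of these libraries known, so its direction is not independent evidence.

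Genes most like the restricted members could not be read at this depth. The rule ranked genes by the least of the 4 ratios between fibroblasts carrying 2 or more restricted members and those carrying none, and led with Copz2 (2.06), Banf1 (1.90) and Ppp3r1 (1.88). Each rests on 1 UMI in the 1 carrier of WT quadriceps. With carriers of 1 or more restricted members instead, a choice made after seeing the data, there were 20, 104, 67 and 121 such cells, and Tnc led with ratios of 4.32, 23.5, 7.54 and 6.10. Next by that rule were Lix1 (least ratio 2.49) and Cryz (2.04 at its lowest). These rest on 1, 1, 2 and 1 UMIs of Lix1 and 1, 3, 2 and 3 of Cryz in carriers, too few to be read. Postn followed with 3.64, 1.94, 2.13 and 2.48, and Timp1 with 21.1, 4.55, 1.93 and 2.47. The WT quadriceps ratios rest on 4 Tnc, 7 Postn and 21 Timp1 UMIs, and nothing is said of shared control. In mdx5cv quadriceps these carriers also held 537 CPM of the 7 myofibre markers (6 detected) against 14.9 in cells without a restricted member, and 373 against 81.3 of the 7 myogenic markers (5 detected), and the part of this in the ratios was not tested.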

How the data were processed

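The deposited matrices hold raw UMI counts per gene and barcode, which the authors made with Cell Ranger (5.0.0 per the submitters' processing notes) on mm10 from 10x Genomics 3′ libraries, per the labels' protocols; the annotation and the use of strand are not given in the sources used here. Barcodes with 1000 or more UMIs, 500 or more detected genes and at most 15% mitochondrial UMIs were kept. Doublets were not removed in the values reported; leaving out the 6% of barcodes with the highest Scrublet score (scanpy 1.11.5) was an alternative. Shares were computed after thinning each cell to 1000 UMIs without replacement. Levels are UMIs summed over a class, scaled to 1000000 UMIs (CPM). Shares have exact Clopper-Pearson intervals, sums exact Poisson intervals and ratios exact conditional intervals, all at 95% and for counting error only (numpy 2.4.6, scipy 1.17.1). A gene at 0 is set to a floor of 3 counts, which is not the limit of its interval. The functions were tested on simulated data. Named list genes are the 3 highest and 3 lowest ratios at 20 or more CPM. The members and lists were chosen with earlier results of these data known. The mural gate was set here as the mirror of the fibroblast gate. Part of the list of TGF-beta targets is not reported here.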

Additional observations from a re-analysis of the deposited data

How the results depend on the processing

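Depth and the gates limit these values: each group is 1 library, mural cells number 3 to 46 outside WT quadriceps, and WT fibroblasts hold few UMIs of the restricted members. No paired analysis was possible because there is 1 library per group. Where 4 values follow each other, the WT quadriceps and WT diaphragm come first, then mdx5cv in the same order of muscles. The summed ratios below changed direction under none of the alternatives run. Single members did in diaphragm. The mdx5cv to WT ratio of Tagln went from 1.94 to 0.881 with Rgs5 or Notch3 positive cells kept in. That of Myl9 went from 0.957 to above 1 under several alternatives, highest at 1.15 with the 5% mitochondrial limit. That of Cnn1 (2 UMIs in mdx5cv) went from 0.174 to 1.16 as the mean over cells. The causes of the shifts were not tested.

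The share of fibroblasts carrying 2 or more members (3.98%, 3.68%, 6.92% and 7.76%) became 23.1%, 33.6%, 46.8% and 49.0% without thinning and 9.32%, 10.7%, 16.1% and 18.3% at 2000 UMIs. A member counted as carried from 2 UMIs gave 0.332%, 0.120%, 0.550% and 0.137%. There mdx5cv diaphragm lay below WT quadriceps, from few cells and with overlapping intervals (0.037 to 0.351 and 0.040 to 1.19). The 5 restricted members alone gave 0.166%, 0.172%, 0.393% and 0.378%. With Rgs5 or Notch3 positive cells kept in, a step added after seeing the data, the share for all members was 5.67%, 4.33%, 8.38% and 8.16%.

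The mural to fibroblast ratio of the summed members (25.9, 76.0, 6.29 and 13.1) was 8.45, 27.4, 3.38 and 4.01 with either gene of a pair enough for the gates. It was 39.6, 114, 9.94 and 16.1 without cells holding Ptprc, Pecam1 or Cdh5, and 28.5, 75.4, 6.11 and 13.9 without the highest 6% of doublet scores. At a mitochondrial limit of 5% it was 17.5, 5.45 and 4.07, with no mural cell in WT diaphragm, so that this value was not run. Subtracting the level of immune cells, which express Cnn2 and Tpm1 themselves, gave 41.6, 140, 7.97 and 17.1. The mean over cells gave 26.3, 81.1, 10.7 and 19.9, the restricted members 165, 508, 14.5 and 49.7, and the broad members 9.12, 21.7, 3.68 and 5.73. Alternatives added after seeing the data gave 15.3, 54.4, 5.33 and 11.8 with Rgs5 or Notch3 positive cells kept in, 27.4, 77.1, 6.82 and 13.0 without fibroblasts holding a myofibre transcript, 27.6, 76.0, 7.99 and 19.4 without mural cells holding Pax7, Cdh15 or Myod1, and 23.5, 45.1, 5.43 and 9.46 with mural cells defined by an excess of Rgs5 and Notch3 over Lum and Dpt.

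The mdx5cv to WT ratio of the summed members in fibroblasts (1.83 in quadriceps and 1.64 in diaphragm) was 1.53 and 1.57 with either gene enough, 2 and 1.72 without cells holding Ptprc, Pecam1 or Cdh5, 1.97 and 1.77 at the 5% mitochondrial limit, 2.03 and 1.69 without high doublet scores, 2.26 and 2.28 after subtracting the immune level, 1.39 and 1.47 as the mean over cells, 4.11 and 2.45 for restricted and 1.55 and 1.53 for broad members. Kept in, Rgs5 or Notch3 positive cells gave 1.28 and 1.29. With those cells kept in, 2 members in quadriceps and 1 in diaphragm were 2-fold higher, in place of 5 and 2. At 1.5-fold, 4 members in place of 2 passed in diaphragm, and 5 in quadriceps at either fold.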

Other observations

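Endothelial cells (Pecam1 or Cdh5 detected, the other gate genes at 0) carried some members. Rgs5 and Notch3 at 0 does not show that a cell of this depth (median 1594 to 2274 UMIs) is free of mural RNA, and 53.0% of mural cells of WT quadriceps held Pecam1 or Cdh5. In WT quadriceps, 1766 such cells gave 137 CPM of Tagln and 74.1 of Acta2, against 19.3 and 21.8 in fibroblasts of that library. In mdx5cv quadriceps, 356 endothelial cells gave 62.6 of Tagln and 1.06 of Acta2, the latter from 1 UMI. The 59 Tagln UMIs there lay in 15 cells. In mdx5cv diaphragm the order was the other way, with Acta2 at 40.7 and Tagln at 14.3. Cald1 was at 228 CPM in endothelial cells of WT quadriceps, against 252 in fibroblasts, and at 176 against 305 in mdx5cv quadriceps. Endothelial cells carrying 2 or more members at 1000 UMIs made up 6.17%, 8.05%, 4.49% and 6.18% in the order WT quadriceps and diaphragm, then mdx5cv quadriceps and diaphragm; fibroblasts gave 3.98%, 3.68%, 6.92% and 7.76%, and immune cells 0.735%, 0.960%, 0.712% and 0.548%.

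Tpm1 was also higher in immune cells of mdx5cv, at 50.7 against 20.03 CPM in quadriceps (2.53-fold, 1.69 to 3.96) and 35.1 against 19.8 in diaphragm (1.77-fold, 1.28 to 2.52), a size like that in fibroblasts. Acta2 was not higher in immune cells of mdx5cv, at 0.848 (0.514 to 1.502) and 0.542 (0.373 to 0.807) of WT.

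Between the muscles of 1 genotype, the summed members of fibroblasts were 1.04 times as high in diaphragm as in quadriceps in WT (0.970 to 1.11) and 0.929 in mdx5cv (0.902 to 0.956). Tagln was lower in diaphragm in mdx5cv, at 0.497 (0.436 to 0.566). In WT it was at 0.641 (0.471 to 0.892), but 1 cell held 23 of the 46 quadriceps UMIs, and without cells holding a myofibre transcript quadriceps had 5.71 CPM and diaphragm 10.98, so that no direction is read for WT.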
